A study of Mus musculus with 9 samples.

Results

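The genes described here are 42 components of the machinery that moves cargo between the endoplasmic reticulum (ER) and the Golgi apparatus. They comprise the COPII coat, cargo receptors, the COPI coat, Arf GTPases, KDEL receptors, and the tethers and SNAREs of the early Golgi. Members were chosen by name and role, with earlier results of these data known. Each was read from its brightest probe set, the one with the highest mean log2 signal over all arrays, among those annotated to that gene alone. All 42 had such a probe set, and 41 passed the filter on dim signals, out of 11453 genes tested. *Tmed2* did not pass.

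Transcripts of the large intestine were measured on Affymetrix arrays, with 1 array per mouse and 3 mice per group. *Winnie* mice were C57BL/6 mice with a missense mutation of *Muc2* that replaces a cysteine by a tyrosine in the D3 domain of the secreted mucin Muc2. *Eeyore* mice carried a serine to proline replacement in the C-terminal D4 domain of Muc2, on a mixed C57BL/6 and NOD-SCID background. Both mutant lines go back to founders treated with N-ethyl-N-nitrosourea, and the wild-type mice were C57BL/6. All were 8 wk old and labelled male, and each array held RNA from the proximal and the distal part of the organ, pooled for that mouse in equal amounts.

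Both mutant groups differed from the wild-type group in more than *Muc2*. *Xist*, the RNA of the inactive X chromosome in females, had a mean signal of 38.4 in *Winnie*, 83.9 in *Eeyore* and 7849 in wild-type mice. *Eif2s3y*, a Y-linked gene, averaged 1291 in *Winnie*, 1260 in *Eeyore* and 17.6 in wild-type mice. The wild-type arrays thus went against their label as male, and sex and *Muc2* genotype cannot be told apart in either comparison with wild-type. No member lies on the X or the Y chromosome. The strain background of *Eeyore* mice cannot be told apart from their mutation either. *Jchain*, the joining chain that plasma cells add to immunoglobulin A, was present in *Eeyore* mice, with signals of 20593 to 34360, against 15098 to 21981 in wild-type mice.

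Proteins made for secretion leave the ER in vesicles that carry the COPII coat. The GTPase Sar1 starts this coat, Sec23 and Sec24 form its inner layer and bind cargo, and Sec13 and Sec31 form the outer cage. Cargo receptors and p24 proteins link soluble or membrane-bound cargo to the coat. COPI vesicles, which need Arf GTPases, carry escaped ER residents, receptors and Golgi enzymes backwards, and KDEL receptors catch ER residents that carry the tail signal of that name. Goblet cells of the large intestine are professional secretory cells that send large amounts of Muc2 along this route. When unfolded proteins build up in the ER, the transcription factors XBP1 and ATF6 are activated, and in mammals they raise transcripts of folding and transport proteins.

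Because these genes are listed together as a secretory module, their promoters were searched for DNA elements that such factors bind. RefSeq promoters (GRCm38.p6), from 250 bases before to 50 bases after each start site, were matched to 37 of the 42 members, with 42 start sites. The core of the unfolded protein response element (UPRE), TGACGTGG, was searched on both strands and found in 8 of 37 members, against 0.714% of 27025 genes. A copy from each of the 8 is shown to let the shared letters and their surroundings be compared, with the element in capitals, written 5′ to 3′ along the gene's own strand, so that the reverse complement appears as CCACGTCA.
Sec24d (chr3:123267459-123267488, plus strand): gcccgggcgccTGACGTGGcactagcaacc
Copb1 (chr7:114254690-114254719, minus strand): cccgcccccttCCACGTCAgccaaggactt
Arf1 (chr11:59228228-59228257, minus strand): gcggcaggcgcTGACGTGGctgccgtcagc
Copb2 (chr9:98563713-98563742, plus strand): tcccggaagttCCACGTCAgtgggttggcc
Sec23a (chr12:59011993-59012022, minus strand): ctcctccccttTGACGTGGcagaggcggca
Kdelr3 (chr15:79516367-79516396, plus strand): tggccgccccgCCACGTCAccgcgcggcca
Stx5a (chr19:8741422-8741451, plus strand): tggcgcagcagCCACGTCAccgagttagga
Gbf1 (chr19:46152535-46152564, plus strand): gaggctagttaCCACGTCAgtgagctgaca
The element began 26 bases before the start site in *Sec24d*, 28 before it in *Copb1*, 30 before it in *Kdelr3*, 12 before it in *Gbf1* and 7 before it in *Copb2*. In *Sec23a* it began 6 bases after the start site, and *Stx5a* had 2 copies, 9 and 39 bases after it. *Arf1* had 2 annotated start sites, and the same copy lay 84 bases before one and 21 bases after the other. Of these 8 genes, *Sec24d* and *Copb1* were higher in both mutant strains and *Arf1* in *Eeyore* mice, while the other 5 were not called.

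The cAMP response element TGACGTCA, which shares its TGACGT with the UPRE core, was found in *Cope* and *Gosr2*, or 2 of 37 members, against 2.03% of all genes. These copies began 210 and 224 bases before the start site.
Cope (chr8:70302546-70302575, plus strand): gcggaggaatgTGACGTCAcggagagaccc
Gosr2 (chr11:103697929-103697958, minus strand): gggggaggctcTGACGTCAgtgcctcgcga
The longer ER stress response elements ERSE and ERSE-II, which contain CCACG and so can overlap the UPRE core, were found in no member, against 0.137% and 0.0444% of all genes. *Sec23b*, the member with the largest change, had none of the 4 elements in this window. A match is a stretch of letters and not a measured binding site.

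In *Winnie* mice 12 of the 41 tested members were higher than in wild-type mice and 0 were lower, at an adjusted p under 0.05 in limma's test. Over all 11453 tested genes, 11.3% were higher and 11.9% lower. The median log2 fold change was 0.26 over the members and -0.05 over all tested genes. At an unadjusted p under 0.05, 20 members were higher and 1, *Golga2*, was lower, against 17.1% and 20.8% of all tested genes. All *Winnie* arrays lay above all wild-type arrays for 21 members and below them for 1. Such separation was common, with 2257 of the 11453 tested genes wholly above and 2782 wholly below.

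In *Eeyore* mice 15 members were higher and 2 lower than in wild-type mice, where 14% of all tested genes were higher and 16.6% lower. The median was 0.27 over the members and -0.04 over all tested genes. All *Eeyore* arrays lay above all wild-type arrays for 20 members and below them for 4. Over all 11453 tested genes, 2376 lay wholly above and 2894 wholly below. The 2 comparisons share their wild-type arrays and are not independent of each other. Summed over the 42 members, signals lay between 156975 and 166087 in *Winnie*, 161051 and 169832 in *Eeyore*, and 134516 and 137562 in wild-type mice. Neither mutant group overlapped the wild-type group in this sum, which bright members such as *Arf1* dominate.

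**Figure D1:**
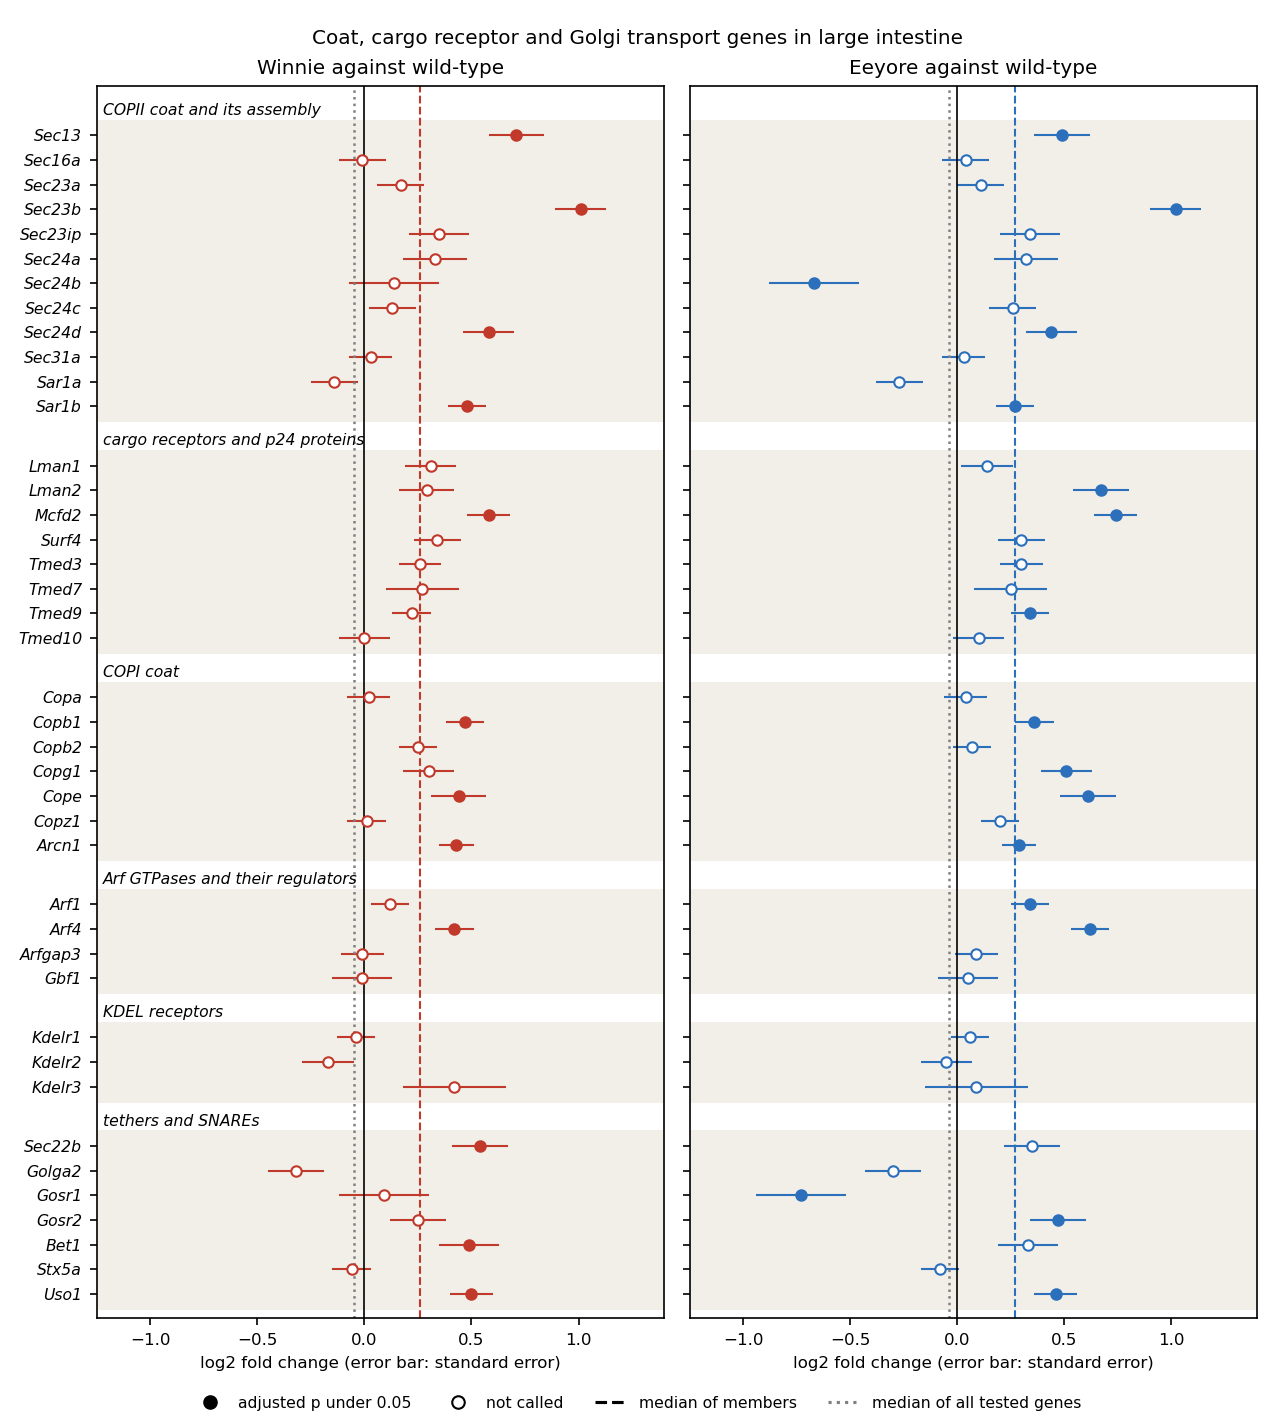
Log2 fold change of the 41 tested members in Winnie (left) and Eeyore mice (right) against wild-type, by role, with standard errors of the fit. Filled points passed an adjusted p of 0.05, dashed lines are the medians of the members (0.26 and 0.27) and dotted lines those of all 11453 tested genes (-0.05 and -0.04).

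These counts depend on how the arrays are levelled against each other. The 10 epithelium markers were themselves brighter in the mutants, with summed signals of 244749 to 256945 in *Winnie*, 257631 to 286959 in *Eeyore* and 207147 to 215694 in wild-type mice. With the arrays levelled on these markers, a setting added after the data were seen, 3 members were higher and 5 lower in *Winnie* mice, and 3 were higher and 9 lower in *Eeyore* mice. Of all tested genes, 3.73% were then higher and 28.0% lower for *Winnie*, and 3.83% higher and 39.2% lower for *Eeyore*. The median of the members was then 0.00 and -0.09, and that of all tested genes -0.31 and -0.41. With each array's median set equal, 36 members were higher for *Winnie*, 33 for *Eeyore* and 0 were lower, with medians of 0.67 and 0.60 against 0.36 and 0.28 over all tested genes, of which 37.1% and 32.4% were then higher. Levelled on epithelium markers, 11 of 41 fold changes for *Winnie* and 24 of 41 for *Eeyore* turned from above to below 0 (at 2 decimals). Their direction relative to wild-type thus rests on the scaling, whereas the members' median lay above that of all tested genes under each of these scalings. With quantile normalization the medians were 0.23 and 0.16 over the members, and 0.03 and 0.04 over all tested genes. Of the 41 members, 40 also passed a filter at the 75th percentile, which keeps 6948 brighter genes. Of those genes, 18.5% were higher for *Winnie* and 21.3% for *Eeyore*, against 13 and 16 of the 40 members. Medians were then 0.27 and 0.28 over the members and 0.04 and 0.05 over those genes.

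*Sec23b*, *Mcfd2* and *Sec13* are the members that remained higher in *Winnie* mice with the arrays levelled on epithelium markers, by 0.75, 0.32 and 0.45 on the log2 scale. *Sec23b*, *Mcfd2* and *Arf4* remained higher in *Eeyore* mice, by 0.66, 0.37 and 0.26. In bulk tissue, a larger share of a cell type and more RNA per cell cannot be told apart, so the epithelial rise and a rise within epithelial cells are not separated by these values.

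**Figure D2:**
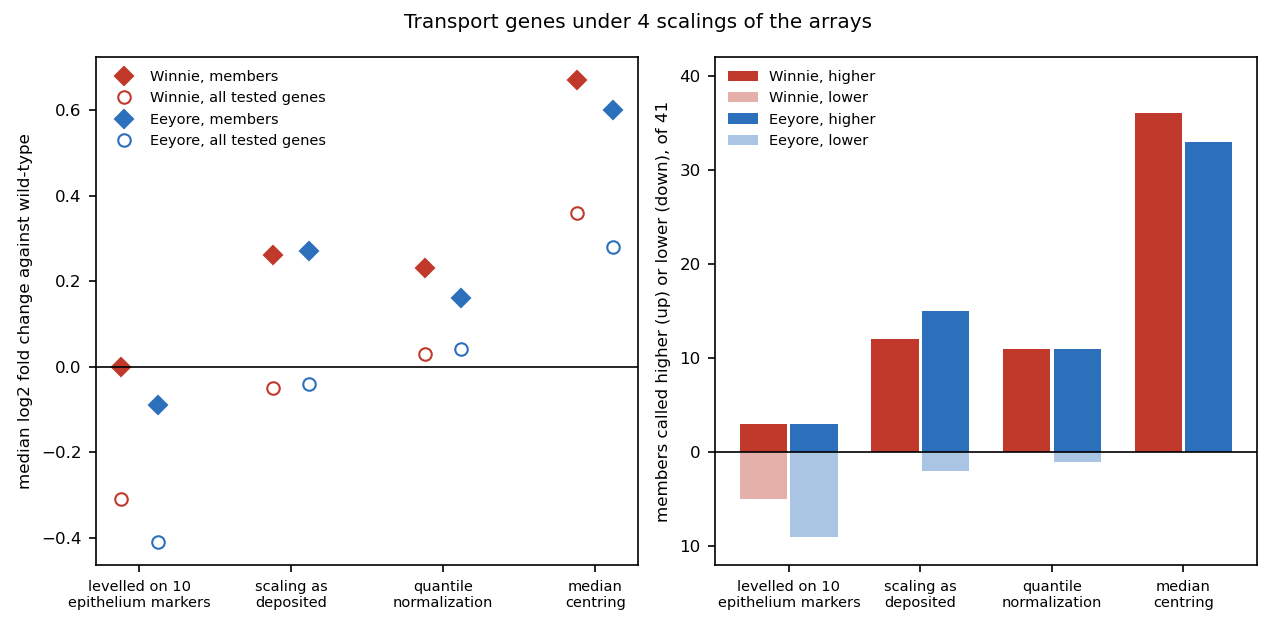
Left, median log2 fold change of the members (diamonds) and of all tested genes (open circles) against wild-type under 4 scalings of the arrays. Right, number of the 41 members called higher (up) or lower (down), from 3 higher in each strain when levelled on epithelium markers to 36 for Winnie and 33 for Eeyore with median centring.

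*Sec23b* showed the largest change of any member in both strains. Its protein forms the inner COPII coat and stimulates the GTPase activity of Sar1. Its signal was 3303, 4131 and 3197 in *Winnie* mice, 3606, 3434 and 3594 in *Eeyore* mice, and 1587, 1851 and 1802 in wild-type mice. Every mutant array was above every wild-type array. The rise was 1.01 ± 0.12 (SE of the fit, n = 3 mice per group) on the log2 scale in *Winnie* (2.02-fold, adjusted p = 0.000275 in limma's test). It was 1.02 ± 0.12 in *Eeyore* mice (2.03-fold, adjusted p = 0.000128).

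*Sec23a*, the paralogue of *Sec23b*, had signals of 3460 to 3996 in *Winnie*, 3206 to 3885 in *Eeyore* and 2987 to 3650 in wild-type mice, which overlapped, and it was not called. On each array the log2 ratio of *Sec23b* to *Sec23a* gives the unequal change of this pair. It was 0.84 higher in *Winnie* and 0.92 higher in *Eeyore* than in wild-type mice, with no overlap between groups (two-sided exact permutation p = 0.1, the lowest that 3 mice against 3 allow). Such ratios were compared for 4 pairs in each strain, 8 comparisons in all, so that none could pass a correction. The pair *Sec24d* and *Sec24c* gave 0.45 for *Winnie*, without overlap (exact p = 0.1), and 0.18 for *Eeyore*, where the groups overlapped (exact p = 0.2).

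*Sec13*, which builds the outer cage with Sec31, was higher in both strains. Its signal was 2482, 3457 and 2773 in *Winnie* mice, 2417, 2635 and 2369 in *Eeyore* mice, and 1785, 1743 and 1744 in wild-type mice. No mutant array reached down to the wild-type range. The log2 rise was 0.71 ± 0.13 for *Winnie* (adjusted p = 0.00258) and 0.49 ± 0.13 for *Eeyore* (adjusted p = 0.0122). *Sec31a*, the partner of *Sec13* in the cage, had fold changes of 0.03 in both strains, with overlapping signals.

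*Sec24d*, a cargo-binding subunit of the inner coat, was also higher. Its signal was 1404, 1571 and 1493 in *Winnie* mice, 1396, 1412 and 1254 in *Eeyore* mice, and 997, 1073 and 920 in wild-type mice. The groups of mutants did not overlap the wild-type group. The rise was 0.58 ± 0.12 for *Winnie* (adjusted p = 0.00577) and 0.44 ± 0.12 for *Eeyore* (adjusted p = 0.0159), where it lost the call without *Eeyore* mouse 2 or wild-type mouse 3 (adjusted p up to 0.0582).

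The other *Sec24* genes went different ways. *Sec24a* and *Sec24c* had fold changes of 0.13 to 0.33 over both strains and were not called. *Sec24b* was lower in *Eeyore* mice, with a log2 fold change of -0.67 ± 0.21 (adjusted p = 0.0305). Its signal was 563, 655 and 693 in *Winnie* mice, 406, 275 and 432 in *Eeyore* mice, and 487, 700 and 565 in wild-type mice. All *Eeyore* arrays were below all wild-type arrays, while the *Winnie* arrays overlapped the wild-type arrays. The difference between the strains was -0.80 ± 0.21 (*Eeyore* minus *Winnie*, adjusted p = 0.0715) and did not pass. The fall lost its call without *Eeyore* mouse 2 (-0.46, adjusted p = 0.114), without wild-type mouse 2 (-0.53, adjusted p = 0.122) and without wild-type mouse 3 (-0.68, adjusted p = 0.0618). The other tested probe set of *Sec24b* gave -0.20 and was not called.

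*Sar1b*, the Sar1 GTPase that carries chylomicrons out of the enterocyte ER in humans, was higher in both strains. Its signals were 6682 to 7352 in *Winnie*, 5883 to 6198 in *Eeyore* and 4599 to 5346 in wild-type mice, with no overlap. The rise was 0.48 ± 0.09 for *Winnie* (adjusted p = 0.00319) and 0.27 ± 0.09 for *Eeyore* (adjusted p = 0.0381), and in *Eeyore* mice 10 of the 19 other settings of the analysis ended the call (adjusted p up to 0.277). Among these were the fits without any 1 of the *Eeyore* mice, without *Winnie* mouse 3 and without wild-type mouse 1 or 2. With arrays levelled on epithelium markers its fold change in *Eeyore* mice was -0.09. *Sar1a* had fold changes of -0.14 and -0.27, neither called, and the log2 ratio of *Sar1b* to *Sar1a* was 0.62 higher in *Winnie* and 0.54 higher in *Eeyore* than in wild-type mice, with no overlap (exact p = 0.1 each). The probe sets of *Sar1a* disagreed, however, and its dimmer one was called higher, by 0.47 and 0.41, so that this ratio holds for the brightest probe sets only.

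The remaining COPII genes were not called. *Sec16a*, which organises ER exit sites, had fold changes of -0.01 and 0.04, and *Sec23ip*, a partner of Sec23, 0.35 and 0.34. In all, 4 of the 12 COPII genes were higher in *Winnie* mice, and 4 were higher and 1 lower in *Eeyore* mice, with medians of 0.25 and 0.27. Of all tested genes, 11.3% were higher for *Winnie*, and 14% were higher and 16.6% lower for *Eeyore*.

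**Figure D3:**
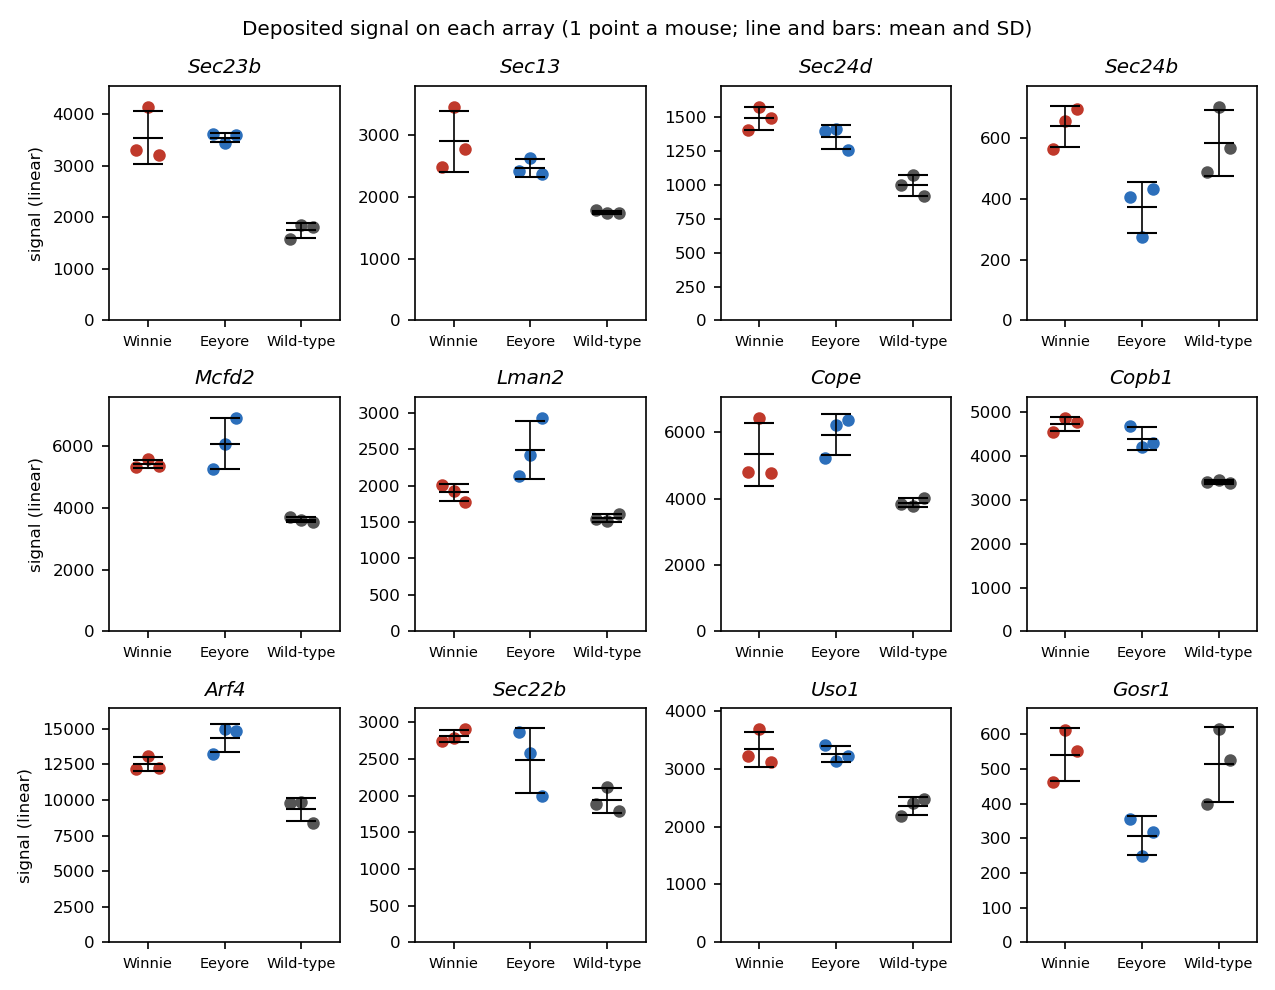
Deposited linear signal of 12 members on each array, from left to right Winnie, Eeyore and wild-type, with the mean and SD of 3 mice per group. All mutant arrays lie above all wild-type arrays for Sec23b, Sec13, Sec24d, Mcfd2, Lman2, Cope, Copb1, Arf4 and Uso1, whereas the Eeyore arrays lie below the others for Sec24b and Gosr1. Of all 11453 tested genes, 2257 lay wholly above wild-type for Winnie and 2376 for Eeyore, and 2782 and 2894 wholly below.

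Among the cargo receptors, *Mcfd2* rose most. Its protein pairs with the lectin Lman1 to carry coagulation factors V and VIII out of the ER in humans. Its signal was 5308, 5565 and 5354 in *Winnie* mice, 5241, 6061 and 6894 in *Eeyore* mice, and 3701, 3592 and 3538 in wild-type mice. The lowest mutant array was well above the highest wild-type array. The rise was 0.58 ± 0.10 for *Winnie* (adjusted p = 0.00276) and 0.74 ± 0.10 for *Eeyore* (adjusted p = 0.000438), and held under all 19 other settings of the analysis in each strain.

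*Lman1*, the partner of *Mcfd2*, was not called from its brightest probe set, with fold changes of 0.31 and 0.14. A dimmer *Lman1* probe set was higher in both, by 1.10 for *Winnie* (adjusted p = 0.000609) and by 0.90 for *Eeyore* (adjusted p = 0.00114), and 2 others were not called. A call for *Lman1* thus depended on the probe set.

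*Lman2*, a lectin that cycles between the ER and the Golgi and binds glycoproteins, was higher in *Eeyore* mice. Its signal was 2011, 1926 and 1777 in *Winnie* mice, 2126, 2414 and 2922 in *Eeyore* mice, and 1536, 1515 and 1614 in wild-type mice. Both mutant groups lay above the wild-type group. The fold change was 0.67 ± 0.13 for *Eeyore* (adjusted p = 0.00261) and 0.29 ± 0.13 for *Winnie* (adjusted p = 0.12), and the strains differed by 0.37 ± 0.13 (adjusted p = 0.174), which did not pass.

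*Surf4*, a receptor for soluble cargo, was just outside the threshold from its brightest probe set, at 0.34 for *Winnie* (adjusted p = 0.0517) and 0.30 for *Eeyore* (adjusted p = 0.0616). Of its 4 other tested probe sets, 3 were called higher in both strains. These ranged from 0.36 to 0.48 in *Winnie* and from 0.47 to 0.76 in *Eeyore* mice. *Surf4* was also called under 7 of 19 other settings in *Winnie* mice.

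The p24 proteins, small membrane proteins that help to sort cargo into both coats, gave 1 call. *Tmed9* was higher in *Eeyore* mice, by 0.34 ± 0.09 (adjusted p = 0.0127), and lost its call without *Eeyore* mouse 2 or wild-type mouse 1, with quantile normalization and with the mean over probe sets (adjusted p up to 0.101). *Tmed3*, *Tmed7* and *Tmed10* had fold changes from -0.00 to 0.30 and were not called, although 2 dimmer probe sets of *Tmed7* were higher in both strains, by 0.31 and 0.63 for *Winnie* and 0.43 and 0.83 for *Eeyore*. A brighter *Tmed10* probe set, shared with *Tmed10-ps*, was higher in *Eeyore* mice, by 0.29 (adjusted p = 0.0301), against 0.00 in *Winnie* mice. The other shared *Tmed10* probe sets were not called in either strain. The only *Tmed2* probe set of its own was dim on every array, between 24.9 and 71.7 in *Winnie*, 2.48 and 8.32 in *Eeyore* and 6.62 and 29.5 in wild-type mice. Bright *Tmed2* probe sets are shared with the predicted gene *Gm10698*, and their signal cannot be split between the 2 genes. All 6 were higher in *Winnie* mice, by 0.27 to 0.77, and 5 of 6 in *Eeyore* mice, where the remaining 1 rose by 0.25 and missed the threshold (adjusted p = 0.0521).

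All 7 COPI subunits had fold changes above 0 in both strains, as did 5233 (*Winnie*) and 5351 (*Eeyore*) of all 11453 tested genes. Of the 7, 3 were called higher for *Winnie* and 4 for *Eeyore*, against 11.3% and 14% of all tested genes. Their medians were 0.30 and 0.29. With quantile normalization, *Copa* and *Copz1* turned below 0 for *Winnie*, and *Copa* and *Copb2* for *Eeyore*. Levelled on epithelium markers, *Copa*, *Copb2* and *Copz1* turned below 0 in both strains, and *Arcn1* in *Eeyore* mice (at 2 decimals). *Cope*, the epsilon subunit, had a signal of 4815, 6421 and 4768 in *Winnie* mice, 5216, 6207 and 6376 in *Eeyore* mice, and 3850, 3768 and 4031 in wild-type mice. The mutant arrays did not overlap the wild-type arrays, and *Winnie* mouse 2 stood above its group. The rise was 0.61 ± 0.13 for *Eeyore* (adjusted p = 0.00414) and 0.44 ± 0.13 for *Winnie* (adjusted p = 0.0262), where the call was lost with quantile normalization, without the intensity trend, and without *Winnie* mouse 2, wild-type mouse 1 or wild-type mouse 2 (adjusted p up to 0.0911 over 19 other settings).

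*Copb1*, the beta subunit, had signals of 4555 to 4856 in *Winnie*, 4196 to 4689 in *Eeyore* and 3371 to 3461 in wild-type mice. Neither mutant group overlapped the wild-type group. It rose by 0.47 ± 0.09 for *Winnie* (adjusted p = 0.0035) and 0.36 ± 0.09 for *Eeyore* (adjusted p = 0.00949). *Arcn1*, the delta subunit, rose by 0.43 ± 0.08 (adjusted p = 0.00375) and 0.29 ± 0.08 (adjusted p = 0.0183), and its call in *Eeyore* mice was lost without *Eeyore* mouse 1 or wild-type mouse 2, with quantile normalization (adjusted p = 0.171) and without the intensity trend (adjusted p = 0.0748). With the mean over its probe sets neither call held, at 0.27 for *Winnie* (adjusted p = 0.0903) and 0.20 for *Eeyore* (adjusted p = 0.158). Of its dimmer probe sets, 1 gave -0.11 and -0.15, and another 0.48 for *Winnie* (adjusted p = 0.0508) and 0.47 for *Eeyore* (adjusted p = 0.0422). *Copg1*, a gamma subunit, rose in *Eeyore* mice by 0.51 ± 0.12 (adjusted p = 0.00686), against 0.30 in *Winnie* mice (adjusted p = 0.081). Its other tested probe set gave -0.34 in *Eeyore* mice and was not called, and the mean over probe sets ended the call (adjusted p = 0.612). That mean also includes an untested dim probe set, with mean signals of 5.15 in *Winnie*, 52.1 in *Eeyore* and 21.1 in wild-type mice.

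*Copa*, *Copb2* and *Copz1*, the alpha, beta-prime and zeta subunits, were not called from their brightest probe sets. *Copa* had 0.02 in *Winnie* and 0.04 in *Eeyore* mice, and its dimmer probe set was lower in *Eeyore* mice, at -0.97 (adjusted p = 0.0412). *Copb2* had 0.25 and 0.07, and its dimmer probe set was higher in *Winnie* mice, by 0.49 (adjusted p = 0.00797). Differences between subunits were not tested.

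The GTPase *Arf4*, which acts at the early Golgi, was higher in both strains. Its signal was 12163, 13049 and 12242 in *Winnie* mice, 13184, 14949 and 14838 in *Eeyore* mice, and 9783, 9833 and 8364 in wild-type mice. The groups did not overlap, and the *Eeyore* arrays lay above the *Winnie* arrays. The rise was 0.62 ± 0.09 for *Eeyore* (adjusted p = 0.000522) and 0.42 ± 0.09 for *Winnie* (adjusted p = 0.00687). With the mean over its probe sets, which include a dim one, it was 0.05 and 0.10 and was not called.

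*Arf1*, the GTPase that recruits COPI to Golgi membranes, had signals of 21508 to 25693 in *Winnie*, 25515 to 28145 in *Eeyore* and 19533 to 22309 in wild-type mice. The *Eeyore* arrays lay above the wild-type arrays and the *Winnie* arrays overlapped them. It rose by 0.34 ± 0.09 in *Eeyore* mice (adjusted p = 0.0137), against 0.12 in *Winnie* mice (adjusted p = 0.341). The call was lost with quantile normalization (0.20, adjusted p = 0.0998), without the intensity trend (adjusted p = 0.0802) and with the mean over probe sets (adjusted p = 0.483). That mean includes an untested dim probe set, with mean signals of 34.6 in *Winnie*, 15.9 in *Eeyore* and 17.2 in wild-type mice. The other tested *Arf1* probe set gave 0.48 for *Eeyore* (adjusted p = 0.0133) and 0.36 for *Winnie* (adjusted p = 0.058). The log2 ratio of *Arf4* to *Arf1* was 0.30 higher in *Winnie* and 0.28 higher in *Eeyore* than in wild-type mice, with no overlap (exact p = 0.1 each). *Gbf1*, the exchange factor that loads Arf with GTP, and *Arfgap3*, which stimulates Arf to hydrolyse it, had fold changes between -0.01 and 0.09 and were not called.

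None of the 3 KDEL receptor genes was called in any comparison. *Kdelr1* had fold changes of -0.04 and 0.06, *Kdelr2* of -0.17 and -0.05, and *Kdelr3* of 0.42 and 0.09 with the widest error of the members, 0.24. At an unadjusted p under 0.05 none passed either. Their summed signals were 8483 to 9479 in *Winnie*, 9187 to 9608 in *Eeyore* and 9024 to 9327 in wild-type mice, which overlapped. A dimmer *Kdelr2* probe set was higher in *Eeyore* mice, by 0.47 (adjusted p = 0.0274). With arrays levelled on epithelium markers, *Kdelr1* and *Kdelr2* were lower in both strains. Their fold changes were then -0.30 and -0.43 against wild-type in *Winnie* mice and -0.31 and -0.42 in *Eeyore* mice.

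Of the 7 tethers and SNAREs, 3 were higher in *Winnie* mice, and 2 were higher and 1 lower in *Eeyore* mice. The shares over all tested genes were 11.3% higher for *Winnie*, and 14% higher and 16.6% lower for *Eeyore*. *Uso1*, the long tether p115 that holds arriving vesicles at the early Golgi, rose in both strains, by 0.50 ± 0.10 for *Winnie* (adjusted p = 0.00626) and 0.46 ± 0.10 for *Eeyore* (adjusted p = 0.00624). Its signals were 3107 to 3678 in *Winnie*, 3126 to 3404 in *Eeyore* and 2186 to 2477 in wild-type mice, without overlap between the mutants and wild-type. *Golga2*, the Golgi matrix protein that Uso1 binds, lay lower in both mutant groups, with fold changes of -0.32 and -0.30, and passed in neither (adjusted p = 0.097 and 0.102).

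*Sec22b*, an ER SNARE, was higher in *Winnie* mice. Its signal was 2748, 2791 and 2905 in *Winnie* mice, 2863, 2576 and 2002 in *Eeyore* mice, and 1882, 2125 and 1798 in wild-type mice. The *Winnie* arrays lay above the wild-type arrays, and *Eeyore* mouse 3 fell within the wild-type range. The fold change was 0.54 ± 0.13 for *Winnie* (adjusted p = 0.0141) and 0.35 ± 0.13 for *Eeyore* (adjusted p = 0.0715). Its other probe set had -0.34 and -0.35 and was not called, and the mean over both gave 0.10 in *Winnie* mice, with no call.

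*Gosr1*, a SNARE of the Golgi, was lower in *Eeyore* mice. Its signal was 462, 612 and 551 in *Winnie* mice, 357, 248 and 319 in *Eeyore* mice, and 398, 614 and 526 in wild-type mice. The *Eeyore* arrays lay below all others. The fall was -0.73 ± 0.21 (adjusted p = 0.0227), and the difference between the strains was -0.82 ± 0.21 (*Eeyore* minus *Winnie*, adjusted p = 0.0713). Leaving out *Eeyore* mouse 2, wild-type mouse 2 or wild-type mouse 3 ended the call (adjusted p = 0.0852, 0.0955 and 0.0614). The other probe set of *Gosr1* had 0.79 and 0.69, with no call, so that the mean over probe sets was -0.02.

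*Gosr2*, another SNARE of the early Golgi, rose in *Eeyore* mice by 0.47 ± 0.13 (adjusted p = 0.0199), against 0.25 in *Winnie* mice. The call for *Gosr2* was lost without *Eeyore* mouse 3, wild-type mouse 1 or wild-type mouse 2. *Bet1*, a SNARE of ER-derived vesicles, rose in *Winnie* mice by 0.49 ± 0.14 (adjusted p = 0.0301), against 0.33 in *Eeyore* mice, and lost the call without *Winnie* mouse 1 or 3 or wild-type mouse 1 or 2. Its dimmer probe set gave 0.52 for *Winnie* (adjusted p = 0.0848) and 0.60 for *Eeyore* (adjusted p = 0.0425). The mean over its probe sets was called in *Eeyore* mice, at 0.46 (adjusted p = 0.035). *Stx5a*, the syntaxin with which these SNAREs pair, had -0.06 and -0.08.

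Between the strains 0 members were called higher and 0 lower in *Eeyore* than in *Winnie* mice, where 1.29% of all tested genes were higher and 1.3% lower. At an unadjusted p under 0.05, 3 members were higher (*Lman2*, *Arf1* and *Arf4*) and 3 lower (*Sec24b*, *Sar1b* and *Gosr1*), against 8.09% and 8.8% of all tested genes. For *Sec23b* the difference was 0.01 ± 0.12 and for *Uso1* -0.03 ± 0.10. With standard errors of 0.08 to 0.24 and 3 mice per group, small differences between the strains would not be called.

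Over all probe sets, the members had 86, of which 75 were tested and 24 members had more than 1 tested. Of 34 tested probe sets besides the brightest ones, 10 were called higher for *Winnie* and 0 lower, whereas 14 were called higher for *Eeyore* and 1 lower. In neither strain was any called against a called brightest probe set. Over all tested genes, each read from its brightest probe set, 11.3% were higher and 11.9% lower for *Winnie*. For *Eeyore* these shares were 14% and 16.6%. The shares over all 22519 tested probe sets were not counted.

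Other genes of the route had medians nearer to 0. Of 55 tested genes of the early secretory pathway that are no members, 10 were higher and 4 lower in *Winnie* mice. In *Eeyore* mice 13 were higher and 7 lower, and the medians were 0.08 and 0.11. Over all tested genes, 11.3% were higher and 11.9% lower for *Winnie*, and 14% higher and 16.6% lower for *Eeyore*. *Tmed5*, another p24 gene, had the largest rise of these, by 1.06 ± 0.13 for *Winnie* (adjusted p = 0.000315) and 1.13 ± 0.13 for *Eeyore* (adjusted p = 0.000112). Its signals were 1903 to 2285 in *Winnie*, 1881 to 2447 in *Eeyore* and 983 to 1020 in wild-type mice. *Ergic2*, a membrane protein of the ER-Golgi intermediate compartment, rose by 0.95 in *Winnie* mice (adjusted p = 0.00187) and by 0.87 in *Eeyore* mice (adjusted p = 0.00206).

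*Tmed6* fell by 1.76 in *Winnie* mice (adjusted p = 0.0122), and its fold change in *Eeyore* mice was -0.36 (adjusted p = 0.554). *Copz2*, the second zeta subunit of COPI, fell in both strains, by 1.39 in *Eeyore* mice (adjusted p = 0.000857) and with -0.83 in *Winnie* mice (adjusted p = 0.0196). *Sec22c* fell by 0.95 in *Eeyore* mice (adjusted p = 0.0377), against -0.30 in *Winnie* mice (adjusted p = 0.523). All of these genes were dim, with signals under 500 on every array. Of 38 genes of Golgi tethers and of coats beyond the Golgi, 6 rose and 1 fell for *Winnie*, 6 rose and 3 fell for *Eeyore*, and the medians were 0.04 and 0.13. Over all tested genes, the shares higher were 11.3% and 14%, and those lower 11.9% and 16.6%. The adaptor subunits *Ap3s1*, *Ap1s1* and *Ap3m1* rose in *Winnie* mice, by 0.61, 0.54 and 0.49. In *Eeyore* mice *Ap1s1* and the GTPase *Arl1* rose, by 0.79 and 0.59, and the golgin *Golga4* fell by 0.54.

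Of 11 transcription factors listed under secretory capacity, 2 were higher and 1 lower in *Winnie* mice, and 2 were higher in *Eeyore* mice. The shares over all tested genes were 11.3% higher and 11.9% lower for *Winnie*, and 14% higher for *Eeyore*. *Bhlha15* (Mist1), a factor of secretory cells, had signals of 340 to 577 in *Winnie*, 279 to 409 in *Eeyore* and 88.3 to 181 in wild-type mice. It rose by 1.74 ± 0.31 for *Winnie* (adjusted p = 0.00282) and 1.30 ± 0.31 for *Eeyore* (adjusted p = 0.00915). *Bhlha15* was dim, with wild-type signals near the filter at 85.9 and the wild-type array medians of 118.3 to 128.6, where signals are imprecise. *Atf4* rose by 0.41 and *Creb3l1* fell by 0.49 in *Winnie* mice, and *Creb3l3* rose by 0.86 in *Eeyore* mice. *Xbp1*, named here after its values were seen because it binds the UPRE, had fold changes of -0.00 and 0.05. These arrays do not separate its spliced and unspliced forms in the values used here.

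**Figure D4:**
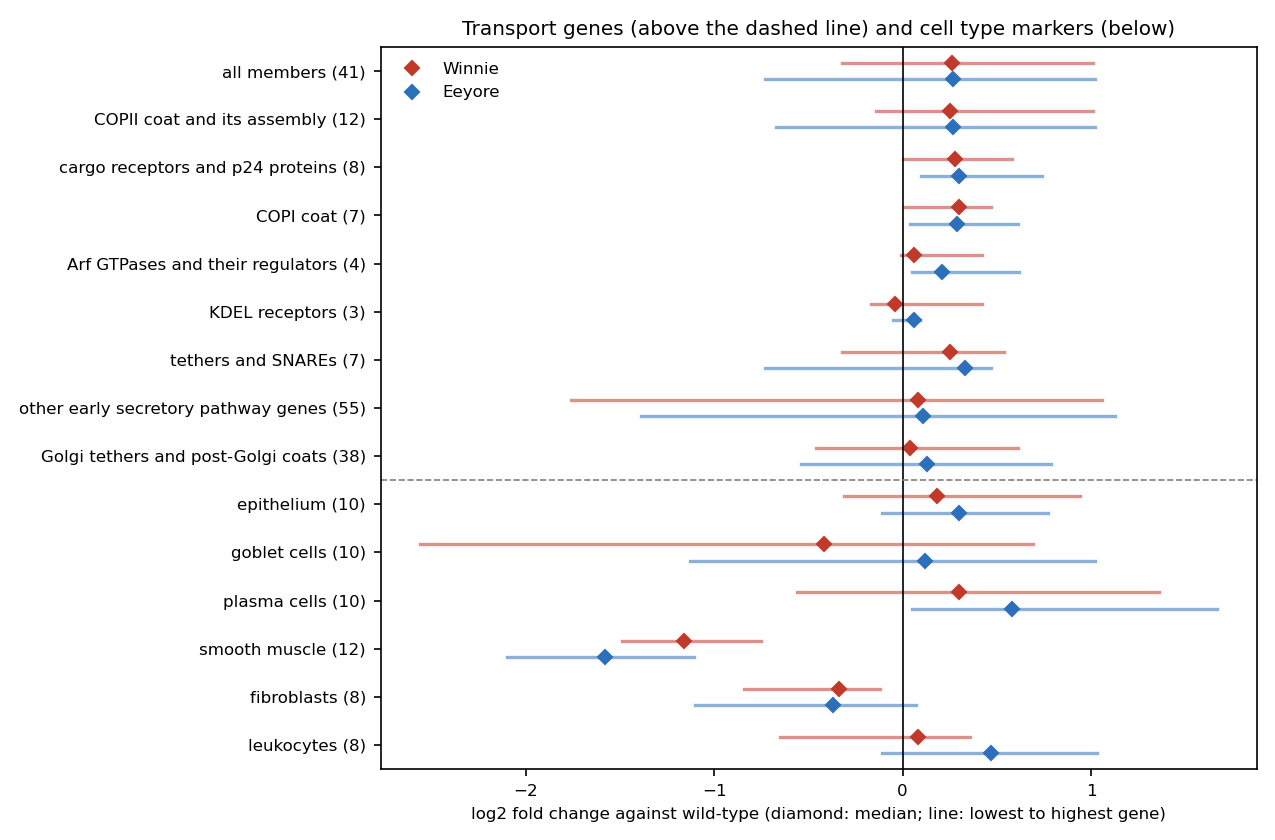
Median (diamond) and range (line) of log2 fold changes against wild-type for Winnie (upper of each pair) and Eeyore mice (lower), by gene list, with the number of tested genes in parentheses. The members' medians are 0.26 and 0.27, and all 12 smooth muscle markers lie below 0 in both strains.

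Markers of several cell types also differed from wild-type, and not all in the direction of the members' medians. Of all tested genes, 11.3% were higher and 11.9% lower for *Winnie*, and 14% higher and 16.6% lower for *Eeyore*. All 12 smooth muscle markers were lower in both strains, with medians of -1.16 and -1.58 and summed signals of 77929 to 84003 in *Winnie*, 62261 to 68870 in *Eeyore* and 169712 to 174651 in wild-type mice. Of 10 epithelium markers, 3 rose for *Winnie* and 6 for *Eeyore*, 0 fell, and the medians were 0.18 and 0.30. Of 8 fibroblast markers, 2 fell for *Winnie* and 4 for *Eeyore*. Plasma cells, which secrete as goblet cells do, had 2 of 10 markers higher in *Winnie* and 4 in *Eeyore* mice, with summed signals of 26964 to 34238 in *Winnie*, 33306 to 45586 in *Eeyore* and 22515 to 29865 in wild-type mice. Leukocyte markers gave 0 calls in *Winnie* and 1 higher in *Eeyore* mice, of 8 tested.

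Goblet cell markers went both ways. *Muc2* itself was lower in both strains, with signals of 25759 to 35694 in *Winnie*, 32542 to 36854 in *Eeyore* and 70046 to 85946 in wild-type mice. *Agr2*, a disulphide isomerase that goblet cells need for Muc2, was higher, with 41844 to 48519 in *Winnie*, 46812 to 50875 in *Eeyore* and 26721 to 28708 in wild-type mice. In all, 1 of 10 goblet cell markers was higher and 5 lower in *Winnie* mice, and 2 were higher and 3 lower in *Eeyore* mice. The part of each of these cell types in the members' changes was not tested, beyond the levelling on epithelium markers given above.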

How the data were processed

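Total RNA of 9 mice (3 *Winnie*, 3 *Eeyore*, 3 wild-type) was hybridised to Affymetrix mouse arrays. What the authors deposited is an intensity on a linear scale for each of 45101 probe sets, scaled per array to a mean of 500 after trimming 2% at each end. The algorithm is not given in the sources used here. Median signals were 87.9 to 99.3 in mutant and 118.3 to 128.6 in wild-type arrays.

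Intensities were put on the log2 scale. Of 45037 probe sets that are not controls, 22519 were tested, namely those whose mean log2 signal reached the 50th percentile of 6.43, which is a signal of 85.9. A limma 3.58.1 fit (R 4.3.3) of the 3 group means took in all 9 arrays (eBayes with an intensity trend), with Benjamini-Hochberg adjustment over these probe sets and a threshold of 0.05. Mice are the replicates, and their number limits the precision. Fold changes are log2 unless a fold is named. A gene is its brightest probe set annotated to that symbol alone, with symbols updated to GRCm38.p6 RefSeq. Exact permutation tests used scipy 1.17.1, and figures matplotlib 3.10.9. The fit was tested on simulated data.

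The members, lists and tests were chosen with earlier results of these data known. Signals of every array are given for the 5 largest rises and falls among members called in each strain, for members called between the strains and for members with opposite calls among probe sets. The 3 largest called changes per strain are named of each other list. Signals of further members are given as ranges. There were 19 alternatives: leaving out each mouse, averaging probe sets, blocking on mouse number, fitting only the pair of groups compared, robust variances, no trend, adding 32 before the log2, filtering at the 75th percentile or not at all, equal array medians (median centring) and quantile normalization. Levelling on epithelium markers was chosen after seeing the data. Promoters are from RefSeq (GRCm38.p6). Mouse numbers were not used to pair the arrays in the main fit.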

Additional observations from a re-analysis of the deposited data

Results flagged for a closer look

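*Arfgap1*, a GTPase-activating protein for Arf that is no member but belongs to the other early secretory genes, differed between the strains in limma's test of the difference itself. Its signal was 695, 716 and 630 in *Eeyore* mice, 1095, 952 and 1111 in *Winnie* mice, and 1141, 1282 and 1179 in wild-type mice. The difference of *Eeyore* minus *Winnie* was -0.63 on the log2 scale (adjusted p = 0.0238), with all 3 *Eeyore* arrays below all 3 *Winnie* arrays. No other gene of the 3 lists of further transport genes and factors was called between the strains. Against wild-type it fell by 0.82 in *Eeyore* mice (adjusted p = 0.00082), and its fold change in *Winnie* mice was -0.19 (adjusted p = 0.31). The strain background of *Eeyore* mice cannot be told apart from their mutation.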

How the results depend on the processing

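Of the 12 members called in *Winnie* mice, 7 kept their call under all 19 other settings of the analysis, and of the 17 called in *Eeyore* mice, 7 did. Scaling moved the counts most. With median centring, 36 members were higher in *Winnie* and 33 in *Eeyore* mice, and 0 were lower in *Eeyore* mice, while 37.1% (*Winnie*) and 32.4% (*Eeyore*) of all tested genes were higher. Levelled on epithelium markers, 3 were higher and 5 lower for *Winnie*, 3 higher and 9 lower for *Eeyore*, and 2 lower in *Eeyore* than in *Winnie* mice, while 28.0% (*Winnie*) and 39.2% (*Eeyore*) of all tested genes were lower than wild-type. Members lower in *Eeyore* mice numbered 1 with quantile normalization (*Sar1a*, -0.34, adjusted p = 0.0431, while *Sec24b* and *Gosr1* lost their calls), 1 with the filter at the 75th percentile, which removes *Gosr1* from the test, and 0 with the mean over probe sets. Leaving out 1 mouse gave 0 to 2 of these, with 0 without *Eeyore* mouse 2, wild-type mouse 2 or wild-type mouse 3, and 0 to 1 members lower in *Eeyore* than in *Winnie* mice (*Gosr1*, without *Eeyore* mouse 1). Median centring turned 8 fold changes for *Winnie* and 4 for *Eeyore* from below to above 0 at 2 decimals. Those called there, all for *Winnie*, were 0.40 for *Arfgap3*, *Gbf1* and *Sec16a*, 0.37 for *Kdelr1* and 0.35 for *Stx5a*. Levelling on epithelium markers turned 11 for *Winnie* and 24 for *Eeyore* from above to below 0. For *Eeyore*, those called in either setting became -0.07 for *Arcn1*, -0.03 for *Arf1*, -0.28 for *Arfgap3*, -0.33 for *Copa*, -0.31 for *Kdelr1*, -0.09 for *Sar1b* and -0.02 for *Tmed9*. These shifts follow from the construction of each scaling, and the cause of the others was not tested. With mouse number as a replicate block, 12 members were higher for *Winnie*, and for *Eeyore* 15 were higher and 2 lower, so that no count changed. The numbers share no stated litter or batch. Correlations of same-numbered arrays lay between -0.00821 and 0.164, and those of differently numbered arrays between -0.0952 and 0.0226. Same-numbered *Winnie* and wild-type arrays had 0.0677, 0.0849 and 0.164, above the differently numbered pairs of these groups (-0.0952 to 0.0199). Whether the numbers reflect a shared order or batch was not tested. Signals near the array medians are imprecise.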
